A study of Mus musculus with 24 samples.

Results

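The miRNAs of mouse subcutaneous adipose tissue were compared between 1 week and 1 day on the control diet, in 4 libraries at week 1 and 4 libraries at day 1, which are 8 of the 24 libraries of the series. The libraries were chosen by their sample titles, and every miRNA name in the count table was considered: 558 of 1907 names had enough reads to be tested. The other 16 libraries came from the same tissue after 3 weeks on the control diet or after 1 day, 1 week or 3 weeks on a high-fat diet. They enter here through the estimate of the spread and as values set beside those of the control diet. The sources used here give no strain, genotype, sex or age of the mice, and time means time on the diet. Since both groups ate the control diet, the comparison gives the difference between the times without the high-fat diet. Whether each library had a mouse of its own is not in the labels, so every p-value refers to the spread among samples, part of which may be technical.

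miRNAs are short RNAs cut from hairpin precursors, first by Drosha in the nucleus and then by DICER in the cytoplasm. Either arm of the hairpin, 5p or 3p, can be loaded into an Argonaute protein, which then represses mRNAs that pair with the seed, bases 2 to 8 of the miRNA. Many miRNA genes lie in clusters that are transcribed together, and miRNAs with the same seed can repress the same mRNAs. Adipose tissue holds adipocytes, vessels, blood and immune cells, each with miRNAs of its own, and in tissue RNA a change in the number of cells of a type and a change in RNA per cell cannot be told apart.

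The mature sequences below carry the results that follow, with the seed in capitals (RefSeq, GRCm38.p6). The first 6 had the smallest p-values between week 1 and day 1.
miR-322-5p: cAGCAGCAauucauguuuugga
miR-369-3p: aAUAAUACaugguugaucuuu
miR-136-5p: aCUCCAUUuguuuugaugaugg
miR-345-3p: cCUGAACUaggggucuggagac
miR-503-3p: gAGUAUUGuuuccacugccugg
miR-141-5p: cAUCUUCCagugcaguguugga
The next 3 come from the same X-linked cluster as miR-322 and are shown to compare seeds within it.
miR-503-5p: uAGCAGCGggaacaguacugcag
miR-351-5p: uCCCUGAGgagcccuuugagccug
miR-450b-5p: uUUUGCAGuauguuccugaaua
The last 5 share the seed of miR-322-5p but are made from other loci.
miR-497a-5p: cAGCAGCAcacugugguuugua
miR-195a-5p: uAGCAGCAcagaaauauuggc
miR-15a-5p: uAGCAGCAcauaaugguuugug
miR-15b-5p: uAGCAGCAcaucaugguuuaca
miR-16-5p: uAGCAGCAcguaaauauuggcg
miR-125a-5p and miR-125b-5p, which are not shown, carry the seed of miR-351-5p.

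Totals ranged from 5.32 to 16.3 M counts (M for mega) at week 1 and from 5.36 to 11.3 M at day 1, and did not differ beyond the spread between libraries (9.24 ± 4.92 M at week 1 and 7.25 ± 2.74 M at day 1, SD, n = 4 each; exact two-sided permutation p = 0.571, where the smallest possible p is 0.0286). At least 1 count was found for 1009.5 ± 75.2 names at week 1 and 933.75 ± 87.6 names at day 1 (SD, n = 4 each, exact permutation p = 0.229). Levels are given as CPM (TMM-scaled counts, per 1 M counts of a library), and 3 counts correspond to 0.19 to 0.62 CPM in these libraries. The fat label was checked against miRNAs tied to adipocytes. miR-148a-3p took 14.7 ± 2.04% of the counts at week 1 and 19.1 ± 4.62% at day 1 (SD, n = 4 each). In the same order, miR-30a-5p took 2.61 ± 0.22% and 2.66 ± 0.21%, and miR-378a-3p 1.95 ± 0.35% and 1.45 ± 0.16%. miR-26a-5p, also tied to adipocytes, was not among the 12 most abundant miRNAs. miR-143-3p took 14.2 ± 1.32% and 11.5 ± 4.23%, but it is a smooth muscle and pericyte marker, so its level does not check the label. No library pair within the groups agreed within sampling noise.

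One library stood apart. Week 1 replicate 4 was the deepest and the highest of the 8 in skeletal muscle miRNAs, with a mean over the muscle list of 8.28 on the log2(CPM + 0.5) scale. It was the lowest in leukocyte miRNAs, with a list mean of 7.05, and the highest in the imprinted Dlk1-Dio3 cluster, with 4.93. Day 1 replicate 4 had the highest muscle mean of its group, 6.20. For most lists that shifted without week 1 replicate 4, both values are given below.

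**Figure D1:**
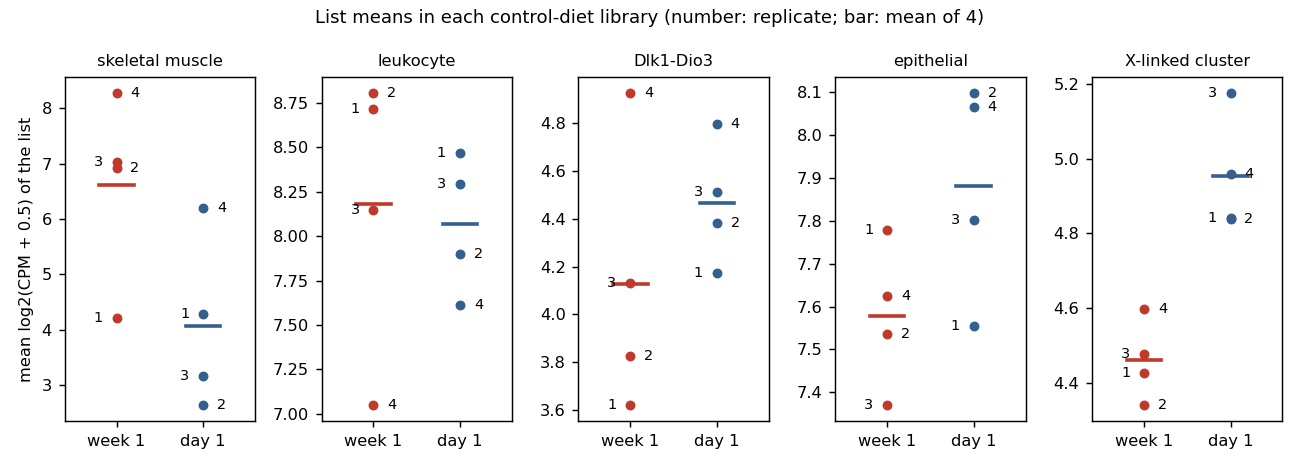
Mean log2(CPM + 0.5) over the tested members of 5 lists in each control-diet library, week 1 in red and day 1 in blue, numbered by replicate, with the group mean as a bar. Week 1 replicate 4 lies highest in muscle (8.28) and Dlk1-Dio3 miRNAs (4.93) and lowest in leukocyte miRNAs (7.05), while in the X-linked cluster all 4 week 1 libraries (4.34 to 4.60) lie below all 4 day 1 libraries (4.84 to 5.18).

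Of the 558 miRNAs, 1 differed between week 1 and day 1 at an adjusted p under 0.05 (0.179%, by edgeR's quasi-likelihood test with Benjamini-Hochberg adjustment). It was lower at week 1: miR-322-5p, an X-linked miRNA with the seed of the miR-15 and miR-16 family, which represses cell cycle genes. No miRNA passed as higher (0 of 558, 0.0%). At an unadjusted p under 0.05 there were 41 higher (7.35% of the tested) and 35 lower (6.27%). Fold changes are log2, week 1 over day 1, with their SE. The median over all tested miRNAs was 0.10, and 60.4% lay above 0 and 39.6% below, which is the background for the list medians below. In a fit of only the 359 miRNAs with a mean CPM of at least 10 that median was 0.0005. With another scaling (RLE size factors) it was 0.056. For lists of abundant miRNAs the background may thus be lower. The 95% confidence interval was within 2-fold either way for 55.6% of the miRNAs, so for the others a change of that size could have gone undetected.

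**Figure D2:**
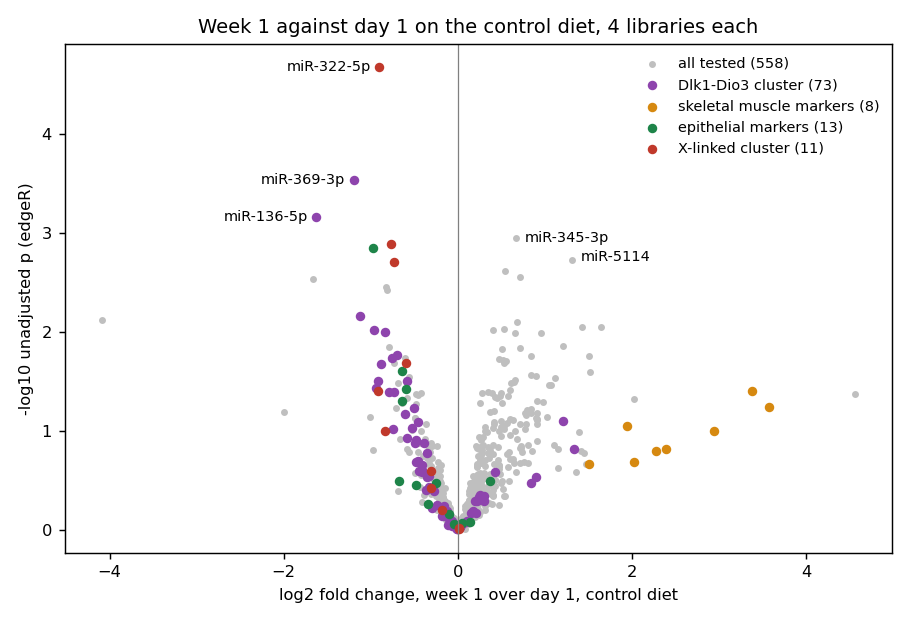
Log2 fold change (week 1 over day 1, control diet) against the negative log10 of the unadjusted edgeR p for the 558 tested miRNAs, with 4 lists coloured. miR-322-5p stands highest at -0.90, and the muscle markers lie to the right with medium p-values. The fitted values of miR-7225-5p on the far right and miR-9-5p on the far left are not read, since each had under 3 counts in every library of 1 group.

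miR-322-5p had 201, 226, 194 and 204 CPM in the week 1 libraries, against 319, 420, 454 and 348 CPM in the day 1 libraries. The groups did not overlap, and the 4 week 1 values lay close together. The means were 206 ± 14.0 CPM at week 1 and 385 ± 62.7 CPM at day 1 (SD, n = 4 each), a log2 fold change of -0.90 ± 0.17 (adjusted p = 0.0118, edgeR). The call stood in 6 of the 8 fits that left out 1 library. It was lost in the other 2: without day 1 replicate 2 the log2 fold change was -0.89 (adjusted p = 0.0556, edgeR) and without day 1 replicate 3 it was -0.77 (adjusted p = 0.119, edgeR). Without both replicate 4 libraries it was -0.94 (adjusted p = 0.0640, edgeR).

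Mir322 lies on the minus strand of the X chromosome (chrX:53054255-53054349, GRCm38) outside annotated genes of that strand, and its mature 5p arm at chrX:53054306-53054327. The hairpins of miR-503 (chrX:53053984-53054054) and miR-450b (chrX:53047997-53048078) follow on the same strand, with miR-351 between them (mature 5p arm at chrX:53053315-53053338). Of the 13 names of this cluster 11 were tested. Of these, 9 had a log2 fold change below 0, beside 39.6% of all tested, with a median of -0.60. At an unadjusted p under 0.05, 5 of the 11 were lower, against 6.27% of all tested miRNAs, and in the same 5 the groups did not overlap, against 2.33% of all tested. Apart from miR-322-5p, which is 1 of these 5, none passed the adjusted threshold. As arms of 1 cluster can share a transcript, these counts are not counts of independent changes.

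miR-503-3p had 47.9, 50.7, 44.6 and 57.5 CPM at week 1, against 74.2, 85.8, 83.9 and 99.4 CPM at day 1, a log2 fold change of -0.77 ± 0.21 (adjusted p = 0.131, edgeR). For miR-450b-5p the values were 13.7, 15.6, 12.5 and 10.7 CPM at week 1, against 22.8, 20.3, 16.7 and 27.6 CPM at day 1 (-0.74 ± 0.21, adjusted p = 0.138, edgeR). miR-351-5p, whose seed is that of the abundant miR-125 family, had 122, 109, 84.5 and 124 CPM at week 1, against 140, 176, 195 and 155 CPM at day 1 (-0.60 ± 0.24, adjusted p = 0.295, edgeR). In all 3, every week 1 library was below every day 1 library. The scarce miR-542-5p, the fifth without overlap, averaged 1.69 ± 0.38 CPM at week 1 and 3.27 ± 0.85 CPM at day 1. The other members overlapped, with log2 fold changes of -0.84 ± 0.49 for miR-351-3p, -0.31 ± 0.27 for miR-542-3p, -0.31 ± 0.35 for miR-450b-3p and -0.19 ± 0.39 for miR-450a-5p.

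**Figure D3:**
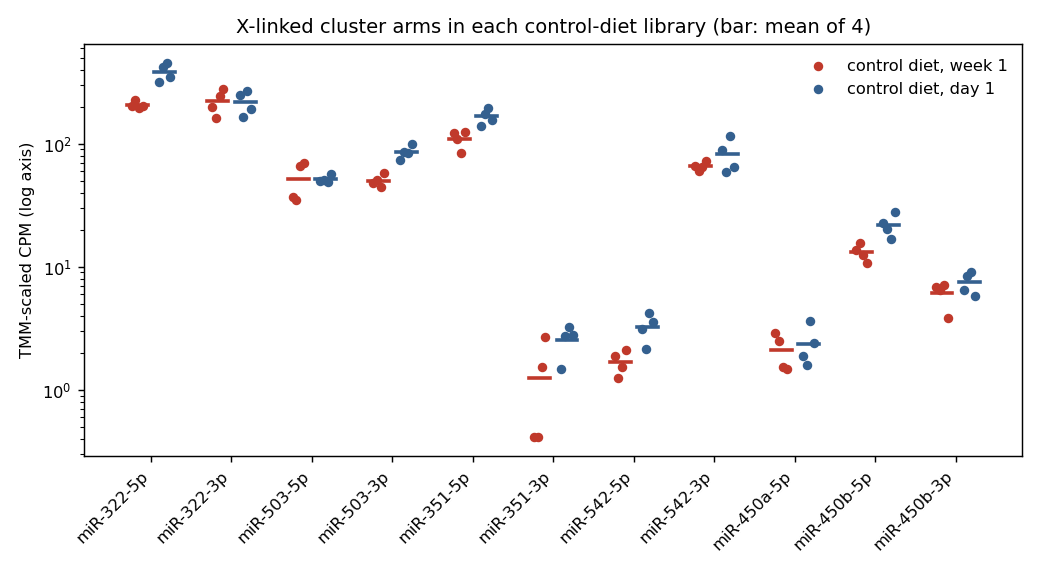
CPM on a log axis of the 11 tested arms of the X-linked cluster in each library, week 1 in red to the left of day 1 in blue, with the mean of 4 as a bar. miR-322-5p (206 against 385 CPM) and miR-503-3p (50.2 against 85.8 CPM) separate by time, whereas their partner arms miR-322-3p (220 against 219 CPM) and miR-503-5p (51.9 against 51.5 CPM) overlap.

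The partner arms of the same hairpins lay near 0 instead. miR-322-3p had 197, 161, 245 and 276 CPM at week 1, against 251, 165, 268 and 192 CPM at day 1, a log2 fold change of 0.01 ± 0.27. miR-503-5p had 36.8, 34.95, 66.3 and 69.5 CPM at week 1, against 49.5, 50.6, 49.1 and 57.1 CPM at day 1, a log2 fold change of 0.01 ± 0.26 with an interval of -0.53 to 0.56. Both signs near 0 turned with another scaling, to -0.030 and -0.025 with RLE size factors. The log2 ratio of the 5p to the 3p arm of miR-322 was -0.07 ± 0.42 at week 1 and 0.83 ± 0.41 at day 1, with overlapping groups. For miR-503 the ratio was -0.02 ± 0.52 at week 1 and -0.72 ± 0.10 at day 1, with no overlap (SD, n = 4 each). Over the 167 hairpins with both arms tested, 6 had a ratio that was higher at week 1 without overlap (3.59%) and 12 a lower one (7.19%), and in 113 both arms had the same sign. Arm ratios were not tested.

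The other miRNAs with the seed AGCAGCA, made from loci on chromosomes 3, 11 and 14, gave no call. miR-497a-5p averaged 507 CPM at week 1 and 653 CPM at day 1, with a log2 fold change of -0.37 ± 0.20, and miR-195a-5p, from the same locus, 1367 and 1585 CPM, with -0.21 ± 0.20. miR-16-5p (0.06 ± 0.29), miR-15b-5p (0.12 ± 0.34) and miR-15a-5p (-0.04 ± 0.22) lay near 0. The carriers of the miR-351-5p seed, miR-125a-5p and miR-125b-5p, had log2 fold changes of -0.26 ± 0.32 and -0.18 ± 0.24.

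Of the 35 miRNAs that were lower at an unadjusted p under 0.05, 13 came from the imprinted Dlk1-Dio3 region of chromosome 12, whose miRNAs are expressed from the maternal chromosome. Of the 113 names listed 73 were tested, a large part of the 558 tested in all. The 13 lower among these 73 stand beside 6.27% of all tested. In 53 of the 73 the log2 fold change was below 0, beside 39.6% of all tested, with a median of -0.18, and none was called. miR-369-3p (hairpin at chr12:109743418-109743496, in an intron of the noncoding gene Mirg) had 14.1, 19.9, 17.3 and 28.8 CPM at week 1, against 32.3, 37.2, 62.7 and 52.7 CPM at day 1. The groups did not overlap, and the log2 fold change was -1.19 ± 0.28 (adjusted p = 0.0814, edgeR). Without day 1 replicate 1 it was -1.38 (adjusted p = 0.0434, edgeR). miR-136-5p (hairpin at chr12:109595327-109595388), which lies antisense to the retrotransposon-derived gene Rtl1, had 127, 238, 228 and 307 CPM at week 1, against 403, 480, 963 and 930 CPM at day 1. Its groups did not overlap either (-1.63 ± 0.41, adjusted p = 0.129, edgeR). These were the only 2 of the 73 that were lower without overlap, beside 2.33% of all tested.

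In both, week 1 replicate 4 was the highest of its group, as it was in the list mean. The Dlk1-Dio3 means were 3.62, 3.83, 4.13 and 4.93 at week 1 and 4.17, 4.38, 4.51 and 4.798 at day 1 on the log2(CPM + 0.5) scale, so that this 1 library made the groups overlap. Over the fits that left out 1 library, the list median ranged from -0.66 to -0.13. The lowest came without this library, whose omission lowers the week 1 mean because it was the highest of its group. Members of a cluster can be transcribed together, so counts of them are not counts of independent changes. Without it, 71 of the 73 had a log2 fold change below 0, with a median of -0.66 beside 0.04 over all tested miRNAs, of which 47.3% lay below 0. At an unadjusted p under 0.05, 33 of the 73 were lower, beside 60 of 566 over all tested (10.6%), and 8 were called by edgeR, beside 11 lower calls in all (1.94%). These 8 were miR-369-3p, miR-136-5p, miR-376b-3p, miR-434-5p, miR-300-3p, miR-377-5p, miR-382-3p and miR-494-3p. Their adjusted p-values reached from 0.0196 for miR-369-3p, with a log2 fold change of -1.48, to 0.0472 for miR-136-5p, with -1.86. Calls by edgeR over all tested miRNAs then numbered 13, with miR-322-5p, miR-503-3p (-0.91) and miR-452-5p (-1.02) also lower and miR-30c-5p (0.59) and miR-5114 (1.44) higher. The same library was the highest of all in muscle miRNAs and the lowest in leukocyte miRNAs, and the part of these in the result was not tested. Without both replicate 4 libraries, 66 of 73 lay below 0, with a median of -0.51, beside 42.7% below 0 over all tested. At an unadjusted p under 0.05, 21 of the 73 were lower, beside 35 of 560 over all tested (6.25%), and by edgeR 0 were called, as over all tested miRNAs.

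Among further members, miR-434-5p, also antisense to Rtl1, averaged 613 ± 250 CPM at week 1 and 1193 ± 439 CPM at day 1 (SD, n = 4 each). Its log2 fold change was -0.96 ± 0.34 with all libraries and -1.36 without week 1 replicate 4. The values for miR-376b-3p were -1.12 ± 0.38 and -1.65, and for miR-495-3p -0.84 ± 0.30 and -1.15, in the same order. miR-379-5p, the most abundant of the cluster, had 1439 ± 746 CPM at week 1 and 1606 ± 362 CPM at day 1, with a log2 fold change of -0.16 ± 0.32. In miR-136 the arms moved unequally: the log2 ratio of 5p to 3p was 1.18 ± 0.35 at week 1 and 2.22 ± 0.56 at day 1, without overlap, and miR-136-3p had a log2 fold change of -0.48 ± 0.30.

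Epithelial miRNAs, chiefly the miR-200 family that represses the transcription factors ZEB1 and ZEB2, had a median below 0 as well. Of 13 tested members 10 lay below 0, beside 39.6% of all tested, with a median of -0.34. At an unadjusted p under 0.05, 4 were lower, beside 6.27% of all tested, and none was called. Without week 1 replicate 4 the median was -0.33, and 2 were lower at an unadjusted p under 0.05, beside 10.6% of all tested. miR-141-5p, the passenger arm of miR-141 (chr6:124717959-124717980), had 24.3, 17.7, 15.3 and 19.7 CPM at week 1, against 25.8, 42.8, 38.0 and 44.9 CPM at day 1. Every week 1 library was below every day 1 library, the closest pair being both replicates 1 (-0.98 ± 0.27, adjusted p = 0.131, edgeR). The log2 fold change was -0.64 ± 0.27 for miR-200a-5p, -0.64 ± 0.31 for miR-141-3p and -0.60 ± 0.27 for miR-200b-5p, each with overlapping groups. The list means were 7.37 to 7.78 at week 1 and 7.55 to 8.10 at day 1. The keratinocyte miRNA miR-205-5p was plentiful at both times, with 1052 ± 252 CPM at week 1 and 1334 ± 260 CPM at day 1.

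Muscle-restricted miRNAs had the highest median of the lists and the widest spread between libraries. All 8 tested members of the list, of 13 names, lay above 0, beside 60.4% of all tested. Their median was 2.33, with a range of 1.51 to 3.57. At an unadjusted p under 0.05, 1 was higher, beside 7.35% of all tested. miR-206-3p had 155, 1596, 1837 and 10837 CPM at week 1, against 141, 69.4, 203 and 804 CPM at day 1, a log2 fold change of 3.57 ± 1.76. miR-1a-3p had 316, 2326, 4068 and 5840 CPM at week 1, against 291, 35.6, 338 and 967 CPM at day 1 (2.94 ± 1.70). In both, 3 of the 4 week 1 libraries exceeded all day 1 libraries and replicate 1 did not. miR-499-5p, from an intron of a slow muscle myosin gene, had 2.7, 23.3, 17.98 and 66.4 CPM at week 1, against 2.6, 2.6, 1.9 and 3.6 CPM at day 1 (3.38 ± 1.53, adjusted p = 0.350, edgeR). The list means were 4.22, 6.93, 7.03 and 8.28 at week 1 and 4.29, 2.64, 3.16 and 6.20 at day 1. Libraries of 1 group thus differed widely, and the groups overlapped. The list median was 1.66 without week 1 replicate 4 and 3.22 without both replicate 4 libraries.

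**Figure D4:**
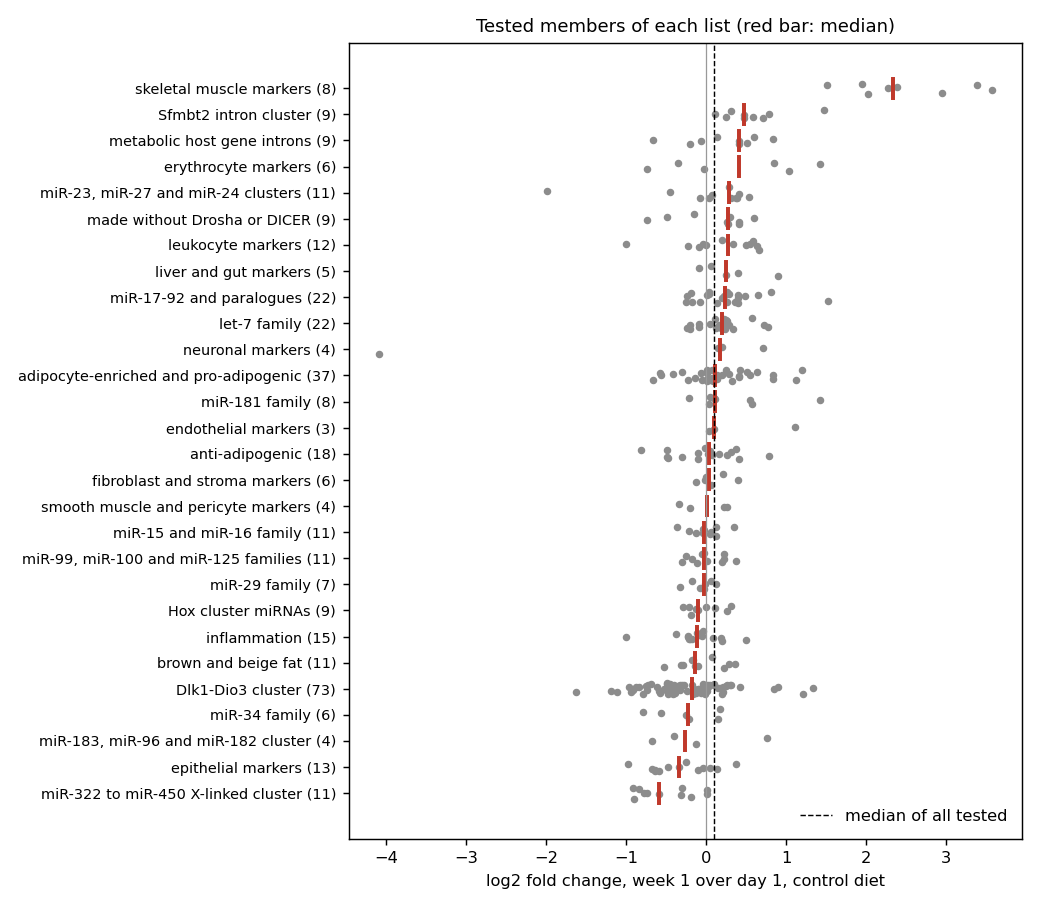
Log2 fold change (week 1 over day 1, control diet) of the tested members of each list, with the list median as a red bar and the median of all tested miRNAs (0.10) as a dashed line; the number tested stands in brackets. The X-linked cluster (-0.60) and the muscle markers (2.33) have the lowest and the highest medians, and the value of -4.08 among neuronal markers is miR-9-5p, which had under 3 counts in every week 1 library.

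Among miRNAs tied to adipocytes, 37 of 40 names were tested. Of these, 28 lay above 0, beside 60.4% of all tested, with a median of 0.11, next to 0.10 for all tested miRNAs. At an unadjusted p under 0.05, 7 were higher and 2 lower, beside 7.35% and 6.27% of all tested, and none was called. miR-30c-5p, which promotes adipocyte differentiation in human cells, had 317, 329, 324 and 227 CPM at week 1, against 223, 194, 228 and 176 CPM at day 1. Week 1 replicate 4 lay within the day 1 range, and the others above it (0.54 ± 0.16, adjusted p = 0.148, edgeR). Without that library the log2 fold change was 0.59 (adjusted p = 0.0472, edgeR). miR-378a, from an intron of the mitochondrial coactivator gene Ppargc1b, was higher in its passenger arm: miR-378a-5p had 239, 270, 338 and 468 CPM at week 1, against 195, 181, 148 and 214 CPM at day 1 (0.83 ± 0.33, adjusted p = 0.295, edgeR). The groups did not overlap. The abundant miR-378a-3p had a log2 fold change of 0.41 ± 0.23, and the related miR-378b, miR-378c and miR-378d had 1.20 ± 0.45, 1.12 ± 0.48 and 0.84 ± 0.36. Near-identical family members may share reads, and muscle expresses miR-378a too; week 1 replicate 4, the highest in muscle miRNAs, was also the highest in miR-378a-5p, miR-378b and miR-378c, and the part of muscle in these values was not tested.

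miR-107-3p, from an intron of the pantothenate kinase gene Pank1, had 99.4, 81.1, 86.0 and 115 CPM at week 1, against 78.5, 69.2, 56.5 and 65.2 CPM at day 1 (0.50 ± 0.19, adjusted p = 0.295, edgeR), with no overlap. Its near-identical relative miR-103-3p was close to level, with 5083 ± 808 CPM at week 1 and 4653 ± 370 CPM at day 1 (SD, n = 4 each; 0.13 ± 0.15). The members of the adipocyte list that were lower at an unadjusted p under 0.05 were miR-26b-5p (-0.57 ± 0.24) and miR-26a-5p (-0.58 ± 0.28). miR-148a-3p, the most abundant miRNA of the tissue, had a log2 fold change of -0.42 ± 0.25 (adjusted p = 0.432, edgeR). Without week 1 replicate 4, 20 of the 37 lay above 0, beside 298 of 566 over all tested, with a median of 0.03. In that fit 1 was higher and 0 lower at an unadjusted p under 0.05, beside 4.24% and 10.6% of all tested.

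Of the miRNAs that restrain adipocyte formation, 18 of 23 names were tested, with 10 above 0, beside 60.4% of all tested, and 8 below. Their median was 0.03, with no call. miR-130a-3p, whose family represses the adipogenic factor PPARG in human preadipocytes, had 214, 201, 230 and 148 CPM at week 1, against 243, 298, 432 and 420 CPM at day 1. The groups did not overlap (-0.81 ± 0.25, adjusted p = 0.162, edgeR). Its relatives miR-130b-3p and miR-301a-3p had log2 fold changes of -0.02 and -0.49. miR-27b-3p, another repressor of PPARG, pointed the other way, with 11984 ± 2063 CPM at week 1 and 9032 ± 770 CPM at day 1 (SD, n = 4 each; 0.41 ± 0.14, adjusted p = 0.239, edgeR). In the clusters of miR-23, miR-27 and miR-24, miR-24-3p, which is made from more than 1 hairpin, was listed at only 0.38 ± 0.15 CPM at week 1 and 1.67 ± 1.59 CPM at day 1, while the arm miR-24-2-5p had 1750 ± 316 CPM and 2403 ± 462 CPM. The sources used here do not say how reads with several genomic matches were counted. Levels of such miRNAs, miR-26a-5p, miR-30c-5p and miR-16-5p included, are therefore uncertain.

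The higher miRNAs with the smallest p-values came from separate loci. miR-345-3p, in an intron of the mitochondrial carrier gene Slc25a47 (hairpin at chr12:108836973-108837068), had 121, 116, 125 and 143 CPM at week 1, against 100.5, 62.9, 97.7 and 57.9 CPM at day 1. All week 1 libraries exceeded all day 1 libraries (0.66 ± 0.18, adjusted p = 0.131, edgeR). miR-5114 had 13.1, 7.74, 7.23 and 4.72 CPM at week 1, against 3.14, 4.31, 4.18 and 1.19 CPM at day 1 (1.31 ± 0.37, adjusted p = 0.138, edgeR). Its hairpin lies in an exon of Scd2, a fatty acid desaturase gene (chr19:44303171-44303231), so its reads and fragments of that mRNA cannot be told apart here. miR-425-3p (0.71 ± 0.21), miR-324-3p (0.68 ± 0.23), miR-149-5p (1.64 ± 0.57), miR-181a-2-3p (1.43 ± 0.50) and miR-744-5p (0.53 ± 0.19) followed (adjusted p = 0.148, edgeR, for the first and adjusted p = 0.239, edgeR, for the other 4).

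The groups of miR-181a-2-3p did not overlap, with 30.4, 50.1, 85.2 and 68.2 CPM at week 1, against 24.7, 14.8, 17.9 and 29.8 CPM at day 1. Another passenger arm of its family, miR-181a-1-3p, had a log2 fold change of 0.55 ± 0.22, whereas the guide arm miR-181a-5p had 0.09 ± 0.22. In all, 27 miRNAs were higher at week 1 with no overlap between the groups (4.84% of those tested) and 13 were lower (2.33%). The lower ones included miR-452-5p, from an intron of the GABA receptor gene Gabre, with -0.82 ± 0.25, and the scarce miR-344b-3p, with -1.66 ± 0.50. The partner of miR-452 in Gabre, miR-224-5p, had 139 ± 22.8 CPM at week 1 and 193 ± 43.0 CPM at day 1 (SD, n = 4 each; -0.48 ± 0.22).

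Of the leukocyte miRNAs, 7 of 12 tested lay above 0, beside 60.4% of all tested. The median was 0.27, and 0 had an unadjusted p under 0.05. Over the fits that left out 1 library the median ranged from -0.07 to 0.48, so its sign depended on single libraries. The highest came without week 1 replicate 4, the lowest library in leukocyte miRNAs. In that fit 10 of 12 lay above 0, beside 298 of 566 over all tested. At an unadjusted p under 0.05, 1 was higher, beside 4.24% of all tested. Without both replicate 4 libraries 11 of 12 lay above 0, beside 321 of 560 over all tested, with a median of 0.37. miR-142a-3p, expressed across blood cells, had 9455 ± 5106 CPM at week 1 and 9461 ± 3741 CPM at day 1 (SD, n = 4 each), with an interval of the log2 fold change of -1.25 to 1.25. The lymphocyte miRNA miR-150-5p had 6627, 8411, 6098 and 1958 CPM at week 1, against 6107, 3126, 4022 and 2150 CPM at day 1 (0.58 ± 0.57). Replicate 4 was the lowest at both times. In erythrocyte miRNAs 3 of 6 lay above 0, beside 60.4% of all tested, with a median of 0.40, or 0.05 without week 1 replicate 4. Among them miR-451a, which is matured by Argonaute 2 without DICER, had 1929, 1275, 1408 and 1404 CPM at week 1, against 1650, 2387, 2994 and 3005 CPM at day 1 (-0.74 ± 0.30, adjusted p = 0.295, edgeR), while miR-486a-5p, which muscle also expresses, had 0.84 ± 0.44 and miR-144-3p, transcribed with miR-451a, -0.03 ± 0.33.

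No member of the remaining lists was called. All 9 tested members of the cluster in an intron of Sfmbt2 were above 0, beside 60.4% of all tested, with a median of 0.48. In this cluster 0 had an unadjusted p under 0.05. Its most abundant member miR-669c-5p had 0.78 ± 0.44. Without week 1 replicate 4, 9 of 10 tested members were above 0, beside 298 of 566 over all tested, with a median of 0.75. At an unadjusted p under 0.05, 3 were higher, beside 4.24% of all tested. Over the fits that left out 1 library this median ranged from 0.13 to 0.75. Among miR-17-92 and its growth-linked paralogues 17 of 22 lay above 0 (median 0.24), beside 60.4% of all tested. In the let-7 family, which restrains growth, 17 of 22 did too (median 0.20), with let-7i-5p at 0.23 ± 0.17. Over the same fits the median ranged from 0.011 to 0.33 for miR-17-92 and its paralogues and from 0.040 to 0.28 for let-7. The medians were -0.12 for inflammation-linked miRNAs (15 tested), -0.14 for miRNAs of brown and beige fat (11), -0.11 for those of the Hox clusters (9), -0.03 for the miR-29 family (7) and 0.28 for those made without Drosha or DICER (9). Without week 1 replicate 4 these 5 medians were -0.18, -0.06, -0.07, -0.02 and 0.15 in the same order. Endothelial miR-126a-3p was level, with 83864 ± 6757 CPM at week 1 and 82191 ± 5516 CPM at day 1 (SD, n = 4 each; 0.03 ± 0.15). Its 95% interval was -0.29 to 0.35, and its sign turned with RLE size factors (-0.014). The lists not described so far had medians between -0.26, for the cluster of miR-183, miR-96 and miR-182, and 0.41, for miRNAs in introns of metabolic genes. Without week 1 replicate 4 the median of the metabolic introns was 0.21, and the lists ranged from -0.66, for the miR-34 family (-0.23 with all libraries), to 0.23, for neuronal markers. In that fit the median went from 0.28 to 0.11 for the clusters of miR-23, miR-27 and miR-24. It went from 0.01 to -0.13 for smooth muscle and pericyte markers and from 0.03 to -0.21 for fibroblast and stroma markers. Among abundant miRNAs, miR-143-3p (0.26 ± 0.23), miR-99a-5p (-0.31 ± 0.20) and miR-21a-5p (-0.22 ± 0.18) did not pass either.

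Whether the change from day 1 to week 1 differed between the diets was tested in the same model as the change on the control diet minus that on the high-fat diet. No miRNA passed (0 of 558, 0.0%), with 83 at an unadjusted p under 0.05 (14.9%), of which 49 were higher (8.78% of the tested) and 34 lower (6.09%). miR-322-5p averaged 228 ± 27.0 CPM at week 1 and 292 ± 17.1 CPM at day 1 on the high-fat diet (SD, n = 4 each), a log2 fold change of -0.36 ± 0.17, and the difference of the changes was -0.54 ± 0.24 (adjusted p = 0.306, edgeR). miR-450b-5p had nearly the same value on both diets, -0.74 ± 0.21 in control and -0.80 ± 0.22 in high-fat libraries. For miR-503-3p the high-fat value was -0.09 ± 0.21.

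The differences with the smallest p-values that lay lower on the control diet were miR-136-5p (-1.97 ± 0.58), miR-369-3p (-1.34 ± 0.40) and miR-224-5p (-1.01 ± 0.31) (adjusted p = 0.289, edgeR, for each). On the high-fat diet these 3 had log2 fold changes of 0.35 ± 0.40, 0.15 ± 0.28 and 0.53 ± 0.22. On the higher side stood miR-425-3p (1.05 ± 0.30), the scarce miR-363-5p (3.09 ± 0.97) and miR-7a-5p (1.76 ± 0.59), with that same value. miR-142a-3p had 3084 ± 2454 CPM at week 1 and 11601 ± 5010 CPM at day 1 on the high-fat diet (SD, n = 4 each), a log2 fold change of -1.91 ± 0.62, and its difference between the diets was 1.91 ± 0.85 (adjusted p = 0.313, edgeR). For miR-150-5p the difference was 2.07 ± 0.82. Muscle miRNAs were uneven on this diet too, and miR-206-3p had a log2 fold change of 2.85 ± 1.71.

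**Figure D5:**
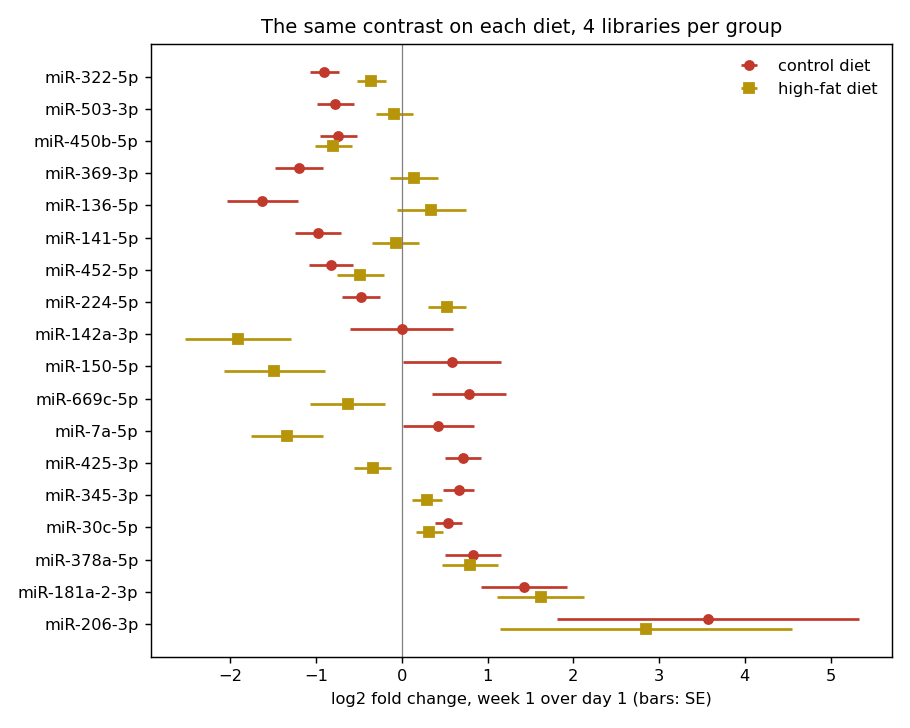
Log2 fold change of week 1 over day 1 with its SE with control feeding (red circles) and high-fat feeding (yellow squares) for miRNAs named in the text, 4 libraries per group. miR-450b-5p (-0.74 and -0.80) and miR-378a-5p (0.83 and 0.79) lie together, whereas miR-136-5p (-1.63 and 0.35) and miR-142a-3p (0.00 and -1.91) lie apart, although no difference between the diets passed the adjusted threshold.

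At week 3 on the control diet miR-322-5p stood at 223 ± 62.1 CPM (SD, n = 4), with a log2 fold change of -0.79 ± 0.17 against the same day 1 libraries (adjusted p = 0.0288, edgeR). miR-369-3p stood at 19.97 ± 3.29 CPM and miR-136-5p at 361 ± 241 CPM, with -1.21 ± 0.28 and -0.94 ± 0.41. For miR-452-5p the week 3 mean was 4.04 ± 0.67 CPM and the fold change -1.24 ± 0.26 (adjusted p = 0.0288, edgeR). Since the day 1 libraries are shared, these values are not independent of those at week 1.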

How the data were processed

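Small RNA libraries were made with the NEBNext kit from TRIzol-purified total RNA, per the labels' protocols. FastQC, Trim Galore, Bowtie2 and featureCounts with build mm10 were used, per the submitters' processing notes; the sources used here give no versions, strand setting or rule for reads with several matches. The deposited table holds raw counts per mature miRNA name, whole numbers whose totals differ between libraries. Of 1907 names 440 were 0 in every library. filterByExpr (minimum count 10, minimum total 15) kept 558, and the other names took up 0.0179% of the counts.

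All 24 libraries were fitted as 6 groups with edgeR 4.0.16 (R 4.3.3; TMM, robust quasi-likelihood, Benjamini-Hochberg adjusted p under 0.05), which was tested on simulated data; the biological coefficient of variation was 0.359. Totals and detection were compared by exact permutation over 70 regroupings. Chi-square per degree of freedom was at least 265 for each pair of libraries within a group, so none was merged. Floors cover counting error only, whereas the intervals of fold changes come from the fit and include the spread between libraries. Alternatives included DESeq2 1.42.0, limma-voom 3.58.1, other scalings and filters, a replicate block and leaving out each library.

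miRNAs were named by rule: the 8 of smallest p on each side, the 5 most abundant, the most abundant of each list, and the 3 per direction that differed most by p between the diets. Further list members were named after their values were seen. The comparison and the lists were chosen with earlier results of these data known. Mature sequences came from RefSeq (GRCm38.p6), in which 489 of the 558 tested miRNAs were matched by name and 69 were not; hairpin positions also come from there, and host genes from GENCODE.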

Additional observations from a re-analysis of the deposited data

Results flagged for a closer look

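Groups of 4 libraries were searched for a single library far from the others, for 92 groups of values. In 6 of them 1 library stood out by the 95% critical value of Dixon, where chance alone gives about 4.6. miR-30c-5p was low in week 1 replicate 4, with 227 CPM beside 317 CPM in the nearest week 1 library. miR-206-3p was high in the same library, with 10837 CPM beside 1837 CPM in the nearest. At day 1, miR-126a-3p was high in replicate 3, with 90426 CPM beside 79896 CPM. miR-129-2-3p was high in that library too, with 6.47 CPM beside 1.87 CPM. miR-200a-3p was high in day 1 replicate 2, with 7036 CPM beside 5348 CPM. The total of day 1 replicate 1 was 11.3 M counts (M for mega), beside 6.24 M in the nearest day 1 library.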

How the results depend on the processing

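The count of miRNAs past the threshold, 1 in edgeR with TMM scaling, was also 1 with RLE size factors, with library totals alone, with scaling that left out muscle miRNAs and with a mean CPM of at least 10. It was 0 with no filter, 0 in a fit of only the 8 libraries, 0 without the replicate 4 libraries of both times (chosen after seeing the data, as the highest of their groups in muscle miRNAs), 9 with DESeq2 (miR-345-3p and miR-30c-5p higher, miR-322-5p, miR-369-3p, miR-136-5p, miR-503-3p, miR-141-5p, miR-450b-5p and miR-130a-3p lower) and 22 with limma-voom and quality weights (6 higher, 16 lower). Leaving out 1 library at a time gave 0 to 13, the 13 coming from the fit without week 1 replicate 4 and the 0 from those without day 1 replicate 2 or replicate 3. The fold change of miR-322-5p kept its sign in every alternative run, and by edgeR its call was lost with no filter (adjusted p = 0.0571) and in only the 8 libraries (adjusted p = 0.111), beside the losses named above. The count of differences between the diets was 0 in every alternative run, DESeq2 (88 at an unadjusted p under 0.05) and limma-voom (139) included.

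Replicate numbers were not treated as pairs. Deviations from the group means of same-numbered libraries had correlations of 0.16, -0.03, -0.08 and 0.55 for replicates 1 to 4, and not every library correlated best with its own number. With the replicate block 2 miRNAs were called, miR-322-5p (-0.90) and miR-5114 (1.39).

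Of the 90 results on single miRNAs, 74 kept their sign throughout. The others turned in some alternative run, and the cause of their turns was not tested. On the control diet miR-7a-5p turned only without week 1 replicate 1 (-0.043). With RLE size factors the log2 fold change was -0.014 for miR-126a-3p, -0.015 for miR-181d-5p, -0.030 for miR-322-3p and -0.025 for miR-503-5p. For the same 4 it was -0.0051, -0.012, -0.027 and -0.026 with scaling that left out muscle miRNAs, -0.022, -0.018, -0.040 and -0.028 with no filter, -0.013, -0.019, -0.027 and -0.022 with a mean CPM of at least 10, and -0.014, -0.015, -0.030 and -0.022 with DESeq2. miR-29a-3p had -0.0022 with no filter. For miR-181d-5p, miR-322-3p and miR-503-5p it was -0.11, -0.064 and -0.044 with limma-voom and -0.0060, -0.023 and -0.020 in only the 8 libraries. miR-503-5p had -0.016 with the replicate block. Without both replicate 4 libraries, miR-181d-5p had -0.10, miR-322-3p -0.18, miR-503-5p -0.11, miR-199a-3p -0.14, miR-200a-3p -0.080, miR-142a-3p 0.15 and miR-15a-5p 0.090. With library totals alone miR-142a-3p had 0.057, miR-15a-5p 0.0069 and miR-144-3p 0.0066, and with limma-voom miR-142a-3p had 0.071 and miR-15a-5p 0.061.

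Leaving out 1 library at a time, the log2 fold change ranged from -0.043 to 0.61 for miR-7a-5p, -0.10 to 0.12 for miR-126a-3p, -0.12 to 0.19 for miR-10b-5p, -0.16 to 0.16 for miR-29a-3p, -0.20 to 0.23 for miR-16-5p, -0.19 to 0.045 for miR-181d-5p, -0.40 to 0.29 for miR-142a-3p, -0.20 to 0.13 for miR-199a-3p, -0.12 to 0.14 for miR-200a-3p and -0.12 to 0.90 for miR-129-2-3p. It ranged from -0.18 to 0.14 for miR-322-3p, -0.23 to 0.097 for miR-503-5p, -0.41 to 0.12 for miR-450a-5p, -0.25 to 0.14 for miR-15a-5p, -0.11 to 0.26 for miR-15b-5p and -0.32 to 0.18 for miR-144-3p. The difference of the log10 totals ranged from -0.012 to 0.15, the lowest without week 1 replicate 4. In the alternative runs, list medians moved by less than the pooled SD of the list mean in 475 cases and further in 28.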
